A study of Mus musculus with 4 samples.

Results

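The genes described here govern the exit of cells from the division cycle: the inhibitors Cdkn1a, Cdkn1b and Cdkn1c, the retinoblastoma family Rb1, Rbl1 and Rbl2, the transcription factor E2f1, the cyclins Ccnd1 and Ccnd2, and Trp53. Every probe set whose platform annotation names exactly 1 of these 10 genes was taken, which gave 26 of the 45037 non-control probe sets of the array. They measure 9 of the 10 genes, most with several probe sets; Trp53 had no probe set in the annotation used here and was not analysed here. The samples were lenses of newborn mice at postnatal day 0.5 on the 129S3 background, labelled male, with 2 arrays of Hsf4 knockout lenses and 2 arrays of wild-type lenses, numbered 1 and 2 in each group. Hsf4 encodes a heat shock transcription factor made in the lens, and the study set lenses that lack it beside normal ones. The labels give neither the design of the deleted allele nor whether an array held 1 animal or several. The number of animals behind a p-value here is therefore not known. Xist and Eif2s3y, genes read differently in the sexes, differed between arrays 1 and 2 of each group (values below). How much of the array-to-array spread is technical was not tested.

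The lens grows from an epithelial layer whose cells divide, leave the cycle near the equator and then elongate into fibre cells that never divide again. D-type cyclins activate kinases that phosphorylate the retinoblastoma proteins, and this frees E2F factors to turn on genes of DNA replication; the Cdkn1 inhibitors block the kinases and so hold the retinoblastoma proteins active. In mouse lenses, Cdkn1b and Cdkn1c are known for their role in this exit, and lenses without Rb1 are known for fibre cells that re-enter the cycle and die.

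RefSeq promoter windows of GRCm38.p6, which run from 250 bases before to 50 bases after a start, were found for 5 of the 9 measured genes, with 6 windows in all. They show which of these promoters hold the letters of an E2F site (TTTCCCGC, TTTCGCGC, TTTGCCGC or TTTGGCGC) or of a heat shock element with a pair of units (GAANNTTC or TTCNNGAA), each searched on both strands, where matches may overlap. Only the Rbl1 window held an E2F match and only 1 Cdkn1a window a heat shock match, against 2.26% and 15.1% of the 32851 windows of all genes. None of the 6 held a heat shock element extended by a further unit (the first form followed by NNGAA, the second by NNTTC), which 0.603% of all windows held. The Mcm6 promoter, with 3 E2F matches of which a pair on opposite strands overlap, is shown beside them because Mcm6 is one of the E2F target genes described further on. Each stretch is written 5′ to 3′ with the matches in capitals. A match describes the letters and not the binding of a factor.
Rbl1, chr2:157204535-157204632, minus strand, E2F letters: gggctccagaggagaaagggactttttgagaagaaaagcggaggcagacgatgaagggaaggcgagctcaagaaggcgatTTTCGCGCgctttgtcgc
Cdkn1a, chr17:29090875-29090978, plus strand, heat shock element letters: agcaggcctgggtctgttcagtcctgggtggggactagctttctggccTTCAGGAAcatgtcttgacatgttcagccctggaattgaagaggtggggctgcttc
Mcm6, chr1:128359725-128359835, minus strand, E2F letters: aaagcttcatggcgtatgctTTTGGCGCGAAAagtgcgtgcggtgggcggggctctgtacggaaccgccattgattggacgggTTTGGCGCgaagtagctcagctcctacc

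Values are intensities after quantile normalization, which gives the 4 arrays one distribution. Every log2 difference is the knockout mean minus the wild-type mean of log2(intensity + 16), a scale that understates changes of dim probe sets, and they were tested with limma over the 22519 probe sets whose mean log2 value reached 4.86, or an intensity of about 13.0. The deposited medians were 18.4 and 6.56 for knockout arrays 1 and 2, against 21.3 and 10.4 for wild-type arrays 1 and 2. The probe set named for Hsf4 was brighter on the arrays labelled knockout (1212 and 413) than on those labelled wild type (505 and 138). The sources used here do not place it relative to the deletion, so it does not check the labels. Xist, the RNA of the inactive X chromosome of females, measured 260 and 9.01 on knockout arrays 1 and 2 and 605 and 58.0 on wild-type arrays 1 and 2 (probe set 1427262_at), which goes against the male label for number 1; Eif2s3y, a gene of the Y chromosome, measured 101 and 161 on the knockout arrays, against 60.4 and 208 on the wild-type arrays (1417210_at). The differences within number 2, given for these genes below, leave the number 1 arrays out. All 10 measured lens fibre markers and all 7 lens epithelium markers lay above the filter. Of the fibre markers, 4 were lower and 3 higher in knockout within both numbers, against 27.4% and 25.9% of all tested probe sets. None passed 0.05 with limma's Benjamini-Hochberg adjusted p. Dnase2b (log2 -1.25, SE 0.36) and Bfsp1 (log2 -1.06, SE 0.21) had the largest decreases. Bfsp2 measured 60.1 and 2907 on the knockout arrays, against 180 and 268 on the wild-type arrays. Striated muscle markers summed to 143 and 151 on the knockout arrays, against 2862 and 1362 on the wild-type arrays, and 10 of 12 lay above the filter, all 10 of them lower within both numbers. The other muscle markers, Myog and Des, lay below the filter. Fibroblast and pericyte markers summed to 1505 and 1168 on the knockout arrays, against 1992 and 2334 on the wild-type arrays, with 7 of 8 lower within both numbers. Of all tested probe sets, 27.4% were lower within both numbers. The part of these other tissues in the values below was not tested, and fewer cells of a type cannot be told apart from less RNA per cell.

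None of the cell cycle exit regulators rose or fell past the threshold in the knockout lenses. Of the 26 probe sets, 22 passed the filter, and they cover all 9 measured genes. With limma's Benjamini-Hochberg adjusted p, 0 of the 22 passed 0.05, against 0.0178% of all probe sets tested (4 of 22519). Of those 4, the 2 lower in knockout were probe sets of the muscle markers Actc1 and Myl1 (limma adjusted p = 0.0201 for each). The smallest unadjusted p among the 22 was 0.225, so 0 had an unadjusted p under 0.05, against 2.33% of all. Their log2 differences ran from -0.34 to 0.33 with a median of 0.01, where all tested probe sets had a median of -0.01 and a 5th to 95th percentile range of -0.57 to 0.49. The groups did not overlap for 3 of the 22 probe sets (1 lower and 2 higher in knockout), or 13.6%, against 27% of all.

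The 95% intervals of the differences limit what can be said of genes that did not pass. For 16 of the 22 probe sets the whole interval lay within a log2 of -1 to 1, and all 22 intervals included 0. Those bounds are 2-fold in intensity + 16, which for dim probe sets allows a change of more than 2-fold in intensity. For the other 6, at least 1 bound reached -1 or 1, and the widest interval, of Cdkn1b, ran from -1.38 to 1.55.

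**Figure D1:**
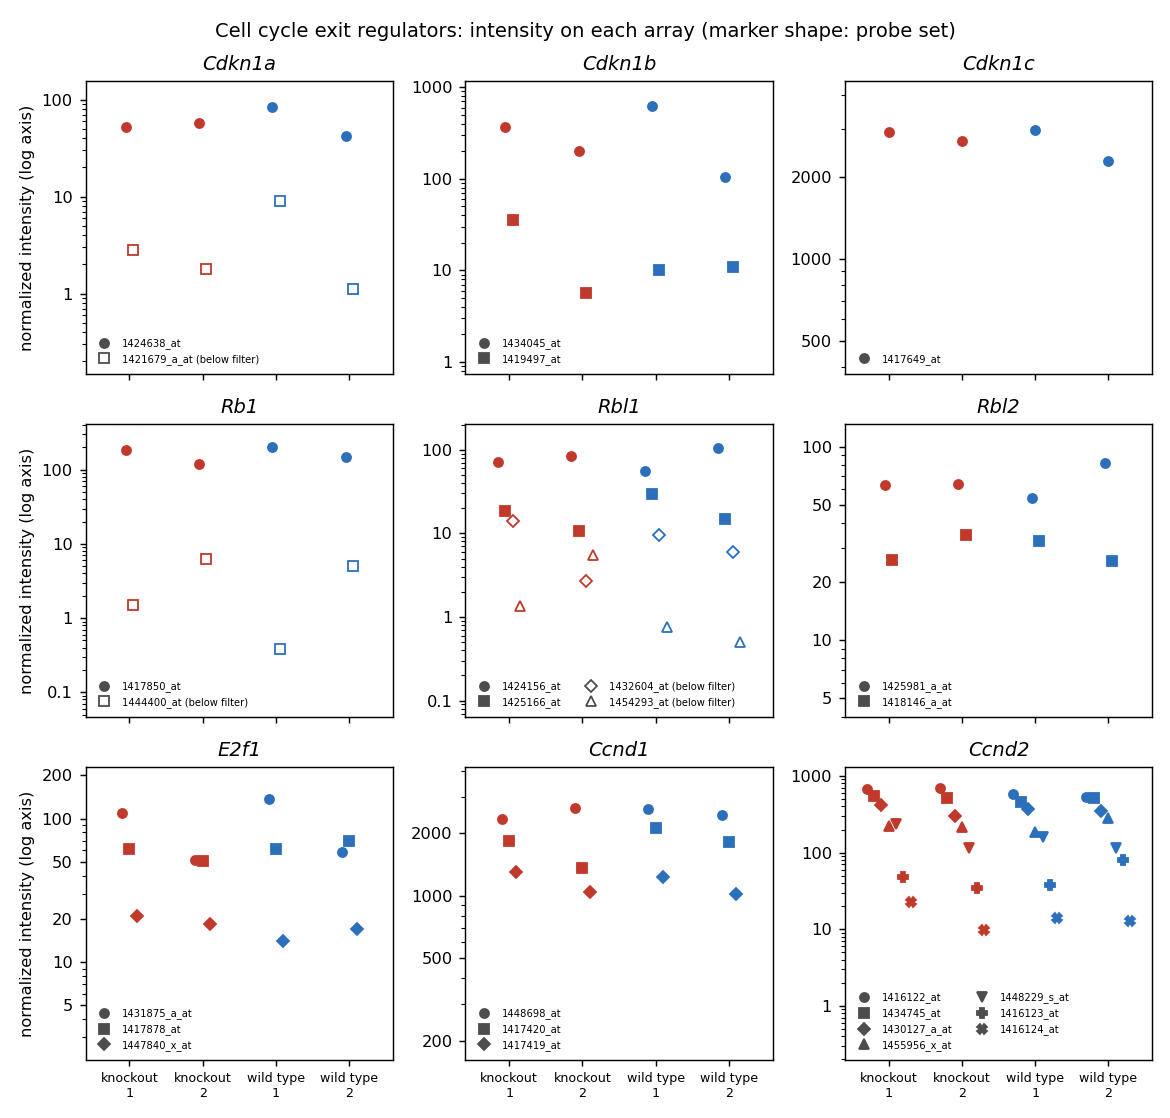
Normalized intensity (log axis) of each of the 26 probe sets on knockout arrays 1 and 2 and wild-type arrays 1 and 2, with 1 panel per gene, 1 marker shape per probe set and open markers for the 4 probe sets below the filter. Red points are knockout and blue points wild type; Cdkn1b probe set 1434045_at runs from 103 to 617 within the wild-type group alone.

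Among the inhibitors, Cdkn1c had the narrowest interval. It encodes an inhibitor of cyclin-dependent kinases that fibre cells use to leave the cycle, and its only probe set (1417649_at) measured 2922 and 2701 on the knockout arrays, against 2967 and 2297 on the wild-type arrays. The knockout values lie inside the wild-type range. The log2 difference was 0.11 (SE 0.21, 95% interval -0.37 to 0.58, limma adjusted p = 1), made up of -0.02 for number 1 and 0.23 for number 2.

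Cdkn1b, the inhibitor that acts beside Cdkn1c in the lens, had the widest interval of all the genes. Its probe set 1434045_at measured 371 and 203 on the knockout arrays, against 617 and 103 on the wild-type arrays. Wild-type array 1 was the brightest and wild-type array 2 the dimmest, with the knockout values between them. The log2 difference of 0.08 (SE 0.65, limma adjusted p = 1) therefore averages opposite differences of -0.71 within number 1 and 0.87 within number 2. It was -1.12 without wild-type array 2 and 1.29 without wild-type array 1, and neither passed. Array 2 minus array 1 was -0.82 in knockout and -2.41 in wild type, so array 1 held the higher value in both groups. The second probe set, 1419497_at, lay near the filter, at 35.7 and 5.63 on the knockout arrays, against 10.1 and 11.0 on the wild-type arrays. Its differences within the numbers, 0.99 and -0.32, had signs opposite to those of the first probe set, and its pooled difference was 0.33 (SE 0.43, limma adjusted p = 1).

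Cdkn1a, the inhibitor that p53 induces in many cells after DNA damage, measured 52.4 and 57.2 on the knockout arrays, against 83.4 and 42.3 on the wild-type arrays (1424638_at). The knockout values again lay between the wild-type ones, and the log2 difference was -0.11 (SE 0.35, interval -0.88 to 0.67, limma adjusted p = 1), made up of -0.54 for number 1 and 0.33 for number 2. This is the gene whose promoter holds the single heat shock match printed above. Its other probe set, 1421679_a_at, lay below the filter with intensities from 1.11 to 8.93 and was not tested.

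The retinoblastoma family showed no passing change either. Rb1, which binds E2F factors and represses their targets, measured 184 and 121 on the knockout arrays, against 202 and 148 on the wild-type arrays (1417850_at). Both numbers had the lower value in knockout, by -0.12 and -0.26, but the groups overlapped, and both array 2 values were below both array 1 values. The log2 difference was -0.19 (SE 0.33, interval -0.94 to 0.56, limma adjusted p = 1). The other Rb1 probe set, 1444400_at, lay below the filter at 0.38 to 6.25.

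Rbl1 encodes p107, a relative of Rb1 found mainly in dividing cells, and its probe sets did not move together. Probe set 1424156_at measured 71.5 and 85.0 on the knockout arrays, against 55.2 and 104 on the wild-type arrays, a log2 difference of 0.03 (SE 0.35), with 0.30 within number 1 and -0.24 within number 2. Probe set 1425166_at measured 18.7 and 10.7 on the knockout arrays, against 29.1 and 14.7 on the wild-type arrays, a difference of -0.29 (SE 0.35) that was below 0 within both numbers. The groups overlapped for both, and both had a limma adjusted p of 1. The remaining 2 Rbl1 probe sets were below the filter, with intensities from 0.50 to 14.0. For 1 of them, 1454293_at, the groups did not overlap, at 1.34 and 5.49 on the knockout arrays, against 0.75 and 0.50 on the wild-type arrays, all far under the filter.

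Rbl2 encodes p130, the family member best known from resting and differentiated cells. Probe set 1425981_a_at measured 63.4 and 64.3 on the knockout arrays, against 54.3 and 82.2 on the wild-type arrays, and 1418146_a_at measured 25.9 and 34.7 on the knockout arrays, against 32.4 and 25.4 on the wild-type arrays. Their log2 differences were -0.06 (SE 0.32) and 0.04 (SE 0.31), both with a limma adjusted p of 1. The signs within number 1 were 0.18 and -0.21 and within number 2 they were -0.29 and 0.29, so the probe sets differed in sign in each number.

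E2f1 encodes the E2F factor that drives entry into DNA synthesis, and its 3 probe sets had small differences of both signs. Probe set 1431875_a_at measured 109 and 51.2 on the knockout arrays, against 136 and 58.3 on the wild-type arrays, lower in knockout within both numbers (-0.28 and -0.15), with a log2 difference of -0.21 (SE 0.43). Array 2 minus array 1 was -0.90 in knockout and -1.03 in wild type, larger in size than the difference between groups. Probe set 1417878_at measured 61.1 and 50.9 on the knockout arrays, against 61.3 and 69.6 on the wild-type arrays, so the groups did not overlap, but the difference within number 1 was only -0.0047. Its pooled difference was -0.18 (SE 0.30). Probe set 1447840_x_at, whose suffix marks probes that may also bind other transcripts, measured 20.8 and 18.5 on the knockout arrays, against 14.0 and 17.1 on the wild-type arrays. Here the knockout values were the higher ones, by 0.18 (SE 0.32), and the groups did not overlap. All 3 had a limma adjusted p of 1.

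**Figure D2:**
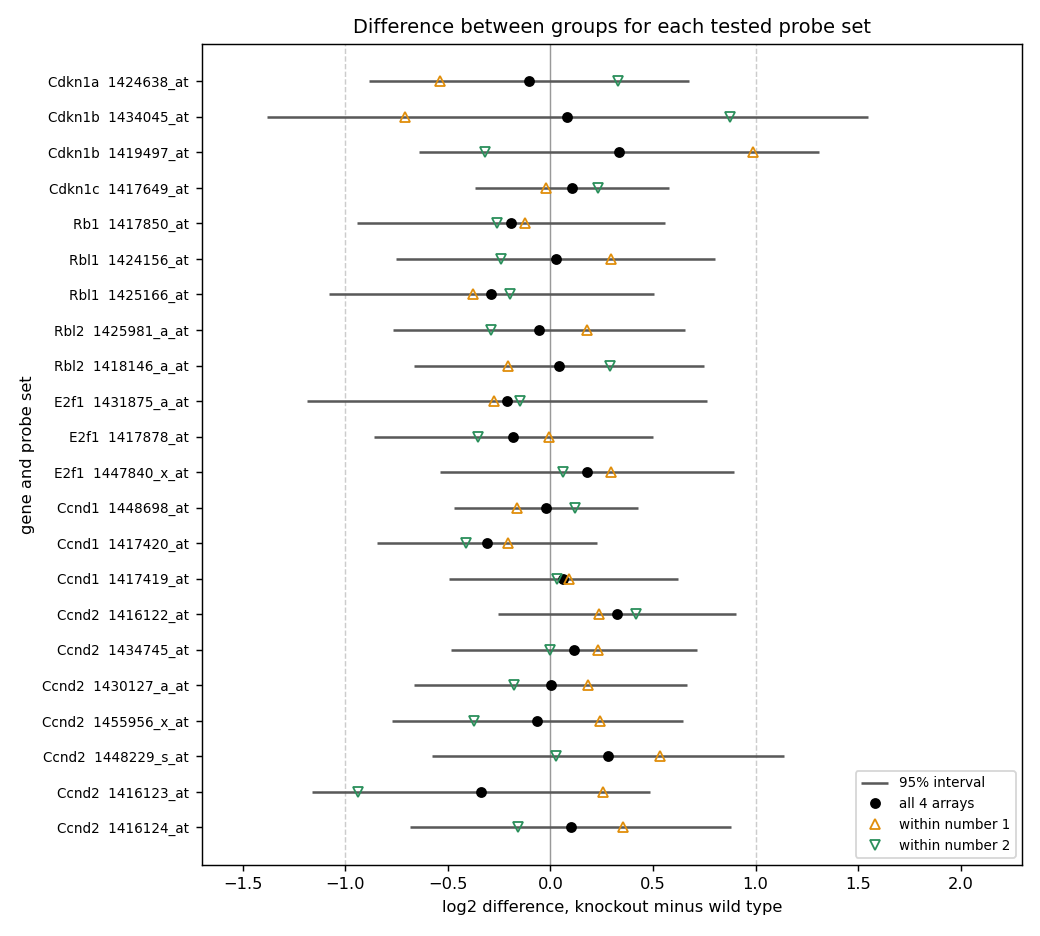
Log2 difference, knockout minus wild type, of each of the 22 tested probe sets (black points, 95% interval as a line), with the difference within number 1 and within number 2 as open triangles; dashed lines mark 2-fold. All 22 intervals include 0, and the triangles of Cdkn1b lie farthest apart.

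The D-type cyclins start the cycle in response to growth factors, and neither Ccnd1 nor Ccnd2 passed the test. Ccnd1 probe set 1448698_at measured 2329 and 2645 on the knockout arrays, against 2611 and 2433 on the wild-type arrays. The wild-type values lie inside the knockout range, and the log2 difference was -0.02 (SE 0.20, interval -0.47 to 0.43, limma adjusted p = 1), the narrowest interval of the 22. Probe set 1417419_at measured 1306 and 1046 on the knockout arrays, against 1224 and 1023 on the wild-type arrays, a difference of 0.06 (SE 0.25). Probe set 1417420_at measured 1829 and 1357 on the knockout arrays, against 2113 and 1810 on the wild-type arrays. It was lower in knockout within both numbers (-0.21 and -0.41) with overlapping groups, and its difference of -0.31 (SE 0.24, interval -0.84 to 0.22) had the smallest unadjusted limma p of all 22, 0.225, and an adjusted p of 1. It ran from -0.52 to -0.10 when each array was left out in turn. The 3 probe sets of this gene thus spanned -0.31 to 0.06.

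Ccnd2, the other D-type cyclin among the cell cycle exit regulators, had 7 probe sets, all above the filter. All 7 were higher in knockout within number 1, by 0.18 to 0.53, while within number 2 their differences ran from -0.94 to 0.41. Probe set 1416122_at measured 686 and 704 on the knockout arrays, against 580 and 524 on the wild-type arrays. The groups did not overlap, and the log2 difference was 0.32 (SE 0.26, interval -0.26 to 0.90, limma adjusted p = 1), made up of 0.23 for number 1 and 0.41 for number 2. Probe set 1434745_at measured 543 and 519 on the knockout arrays, against 459 and 519 on the wild-type arrays, a difference of 0.12 (SE 0.27); the array 2 values are equal because they held the same rank. The opposite sign was seen for 1416123_at, with 47.6 and 34.8 on the knockout arrays, against 37.2 and 81.1 on the wild-type arrays, a difference of -0.34 (SE 0.37) that was 0.26 within number 1 and -0.94 within number 2. The other 4 probe sets had differences from -0.06 to 0.28, and all 7 had a limma adjusted p of 1. The 7 share a gene and an array, so their common sign within number 1 is not that of 7 independent measurements.

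Most of these probe sets differed more between the array numbers than between the groups. Averaged over the groups, array 2 minus array 1 was larger in size than knockout minus wild type for 16 of the 22 probe sets, against 61.3% of all tested probe sets. The difference between groups had opposite signs within the numbers for 12 of the 22, or 54.5%, against 46.7% of all. It was lower in knockout within both numbers for 5 (22.7%, against 27.4% of all) and higher within both for 4 (18.2%, against 25.9% of all). The remaining probe set, Ccnd2 1434745_at, had a difference of 0 within number 2. These shares come from 22 probe sets of 9 genes and lie near those of the whole array, with no test made.

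**Figure D3:**
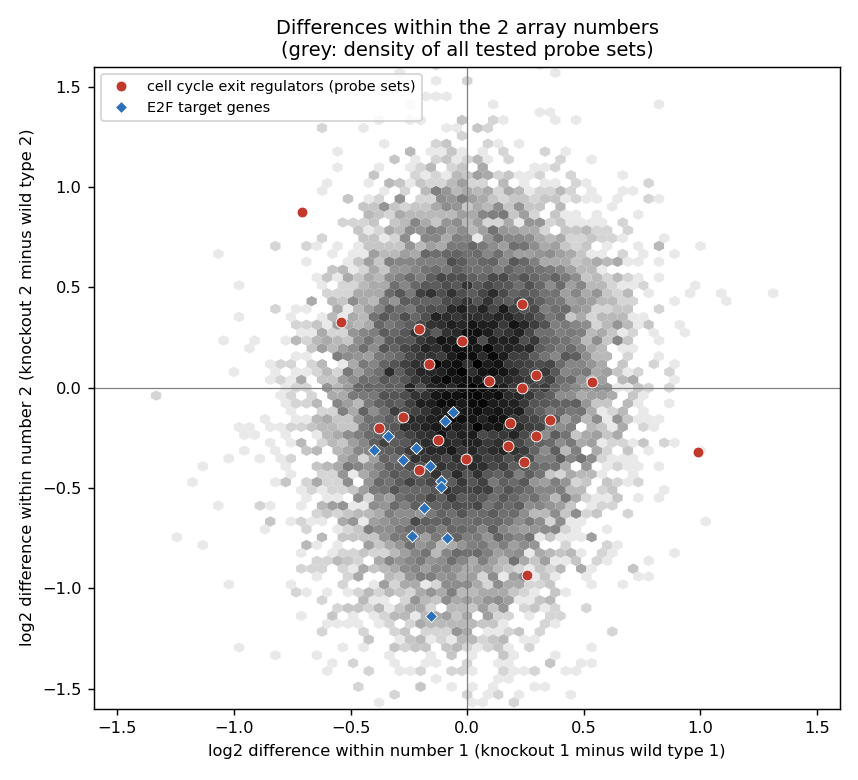
Log2 difference within number 1 (horizontal axis) against that within number 2 (vertical axis) for the 22 tested probe sets of the cell cycle exit regulators (red circles) and for the 13 tested E2F target genes (blue diamonds), over the density of all tested probe sets in grey. The red circles lie in all 4 quadrants, and all 13 blue diamonds lie in the lower left one.

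Other genes of the pathway were counted with 1 probe set a gene, the one with the highest mean. With all 4 arrays, none of the 7 lists held a gene that passed limma's adjusted p in either direction, against 0.00888% of all probe sets higher and 0.00888% lower, and none of their genes had an unadjusted p under 0.05. Of the INK4 inhibitors, which block the kinases of D-type cyclins, 3 of 4 were tested. Their median log2 difference was -0.13, and Cdkn2b measured 14.4 and 31.8 on the knockout arrays, against 12.2 and 1.57 on the wild-type arrays (log2 0.78, SE 0.39, limma adjusted p = 1), near the filter. Of the other cyclins and kinases, 9 were tested with a median of -0.08. They include Ccnd3, a further D-type cyclin, with a log2 difference of 0.45 (SE 0.34). Ccnd3 was higher in knockout within both numbers, by 0.36 and 0.54, but the groups overlapped. The lowest p was that of Cdk6, a partner of D-type cyclins, which measured 158 and 139 on the knockout arrays, against 245 and 188 on the wild-type arrays (log2 -0.49, SE 0.31, limma adjusted p = 1).

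The other E2F, DP and DREAM factors had a median of -0.09 over 15 genes, with 8 lower and 3 higher within both numbers. Of all tested probe sets, 27.4% were lower and 25.9% higher within both. E2f8, a repressing E2F, measured 56.2 and 2.50 on the knockout arrays, against 90.9 and 46.2 on the wild-type arrays (log2 -1.16, SE 0.57, limma adjusted p = 1), and its low value rests on knockout array 2. Its difference was -2.14 without knockout array 1, where knockout array 2 alone, at 2.50, stood for the group. The p53 regulators and targets had a median of 0.04 over 13 genes. In them Ccng1, a cyclin gene induced by p53, measured 334 and 415 on the knockout arrays, against 478 and 499 on the wild-type arrays (log2 -0.37, SE 0.28, limma adjusted p = 1). For the turnover of Cdkn1b and cyclins, the 8 genes had a median of -0.13, and Cul1, the scaffold of a ubiquitin ligase, measured 400 and 412 on the knockout arrays, against 540 and 609 on the wild-type arrays (log2 -0.48, SE 0.27, limma adjusted p = 1). Of the lens factors tied to cell cycle exit, 9 had a median of 0.03. Prox1, a transcription factor that fibre cells need to leave the cycle, measured 364 and 488 on the knockout arrays, against 231 and 405 on the wild-type arrays (log2 0.44, SE 0.34, limma adjusted p = 1). None of these medians kept its sign when each array was left out in turn. They ran from -0.25 to 0.10 for INK4 inhibitors (without knockout array 1 and without knockout array 2), and from -0.30 to 0.07 for other cyclins and kinases (without wild-type array 1 and without wild-type array 2). For other E2F, DP and DREAM factors they ran from -0.15 to 0.03 (without wild-type array 2 and without knockout array 2), and for p53 regulators and targets from -0.03 to 0.04 (without wild-type array 2 and without wild-type array 1). For turnover they ran from -0.29 to 0.001 (without wild-type array 2 and without knockout array 2), and for lens factors from -0.17 to 0.22 (without knockout array 1 and without knockout array 2).

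The E2F target genes, which make the proteins of DNA replication and division, lay on one side. All 13 tested genes had lower values in knockout within both numbers, against 27.4% of all probe sets, and the groups did not overlap for 9 of the 13, against 14.4% of all with the knockout lower. Their log2 differences ran from -0.65 to -0.09 with a median of -0.30, and with medians of -0.16 for number 1 and -0.39 for number 2. The smallest unadjusted limma p was 0.0867, and 0 of the 13 passed. This list overlaps a cell cycle list already examined on these arrays, so its direction is not independent evidence. Over all 28 tested probe sets of these genes, 25 were lower within both numbers, 0 were higher within both and 3 had opposite signs.

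Mcm4, a subunit of the helicase that opens DNA for replication, had the lowest p of the list, with 250 and 142 on the knockout arrays, against 280 and 332 on the wild-type arrays (log2 -0.65, SE 0.34, limma adjusted p = 1). It had -0.15 within number 1 and -1.14 within number 2. Mcm6, another subunit, whose promoter is printed above, measured 383 and 336 on the knockout arrays, against 448 and 417 on the wild-type arrays (log2 -0.26, SE 0.28), and Mki67, a protein of dividing cells, measured 327 and 442 on the knockout arrays, against 437 and 552 on the wild-type arrays (log2 -0.36, SE 0.30), both with a limma adjusted p of 1; these 2 were named after their values were seen. Promoter windows were found for 13 of the 15 listed genes, 14 windows in all, and 6 of the 14 held an E2F match. Without knockout array 2, 12 of the 13 genes were lower with a median of -0.28, where 50.6% of all tested probe sets were lower. Without wild-type array 1, 12 were lower with a median of -0.46, where 52.4% of all were. Mcm2, another subunit of that helicase, was the exception both times. All 13 were lower as deposited, where 92.2% of all tested probe sets were, with median centring, where 80% were, and with trimmed-mean scaling, where 48.5% were. E2f1 itself and the retinoblastoma genes Rb1, Rbl1 and Rbl2, which stand above these genes in the pathway, had differences between -0.29 and 0.18. Whether these and the target genes differ from each other was not tested. Of the marker lists, all 10 tested muscle markers and 7 of 8 fibroblast and pericyte markers were lower in knockout within both numbers as well. Of the lens epithelium markers, which mark the layer that divides, 3 of 7 were lower and 1 was higher within both. The shares of all tested probe sets were 27.4% lower and 25.9% higher. Neural retina markers summed to 2143 and 957 on the knockout arrays, against 1985 and 2066 on the wild-type arrays; their 6 tested genes had a median log2 difference of -0.54, made up of 0.08 for number 1 and -1.17 for number 2, and of 0.05 without knockout array 2. Erythroid markers summed to 135 and 514 on the knockout arrays, against 91.7 and 158 on the wild-type arrays, and their 4 tested genes had a median of 0.97, or 0.08 without knockout array 2. The E2F target genes also had their larger difference within number 2, and the part of these tissues in it was not tested. Differences within number 2 were wider over all tested probe sets too. Their 5th to 95th percentile range was -0.95 to 0.80, against -0.51 to 0.51 within number 1.

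**Figure D4:**
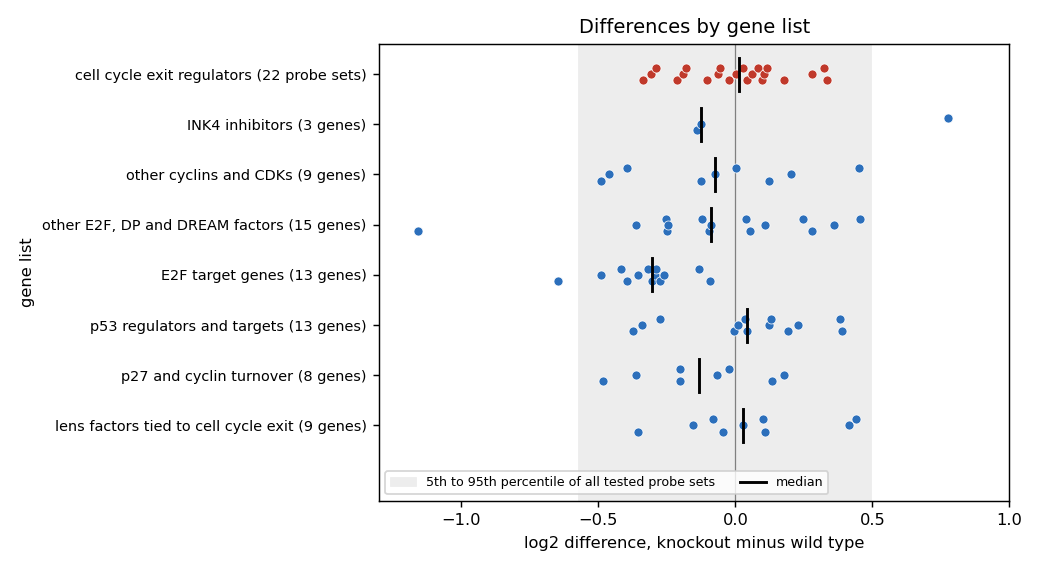
Log2 difference, knockout minus wild type, of each tested probe set of the cell cycle exit regulators (red) and each tested gene of 7 pathway lists (blue), with the median of each list as a black bar and the 5th to 95th percentile range of all tested probe sets in grey. The regulators sit on both sides of 0 between -0.34 and 0.33, and the 13 E2F target genes all sit below 0 with a median of -0.30.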

How the data were processed

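Total RNA of dissected lenses was measured on Affymetrix arrays, with 2 knockout and 2 wild-type arrays. Each deposited value is a linear intensity of 1 probe set, with medians that differ between arrays, so no scaling between arrays by the authors was assumed; how probes were summarised and background was removed was not stated. The number of arrays limits the precision. Quantile normalization in limma 3.58.1 (R 4.3.3) came first, then 16 was added, and log2 was taken. The 64 control probe sets were left out. Of the other 45037, 34945 had 1 gene symbol, 932 several and 9160 none. The 22519 probe sets whose mean log2 value reached the median, 4.86, were fitted with limma (variance trend, no block), and p-values were Benjamini-Hochberg adjusted over all of them with a threshold of 0.05. The fit was tested on simulated data.

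The members and gene lists were chosen with earlier results of these data known. The text names every member and, of each pathway list, the gene with the lowest p, since none passed. Ccnd3, Mcm2, Mcm6, Mki67 and the named marker genes were named outside this rule. Bulk markers of other tissues were summed over 1 probe set a gene. Alternatives were other scalings, filters, offsets and variance models, a block for the array number, the mean of a gene's probe sets, and leaving out each array; those for the pathway lists were added after seeing the data.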

Additional observations from a re-analysis of the deposited data

Results flagged for a closer look

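Control probe sets were used in no test. Those for 18S ribosomal RNA, a transcript without a poly-A tail, were brighter on array 2 than on array 1 in both groups, and for 2 of the 3 the value on knockout array 2 exceeded the brighter wild-type array by more than 2-fold. The probe set of the 3′ region measured 10.6 and 3228 on knockout arrays 1 and 2, against 12.8 and 349 on wild-type arrays 1 and 2. That of the middle region measured 16.7 and 3636 on the knockout arrays, against 14.3 and 432 on the wild-type arrays. The third, of the 5′ region, did not differ in that way, with 14.3 and 7309 on the knockout arrays, against 1.52 and 6898 on the wild-type arrays. The array number and this control signal move together, and their part in the cell cycle values was not tested.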

How the results depend on the processing

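None of the 22 tested probe sets of the cell cycle exit regulators passed under any setting run, among them other scalings, filters, offsets and variance models and leaving out each array, with adjusted p of at least 0.46 in limma. The count of all probe sets higher in knockout, 2 with all arrays, was 0 as deposited and with no filter, 1 with offset 1 and with no variance trend, and 1 to 156 without 1 array (156 without knockout array 1, 34 without knockout array 2). The count lower, 2, was 0 as deposited and with no filter, 12 with median centring, and 2 to 410 without 1 array (410 without knockout array 1, 58 without knockout array 2). The labels do not say that the array number marks a shared litter or day. Deviations from the group means correlated at 0.43 between the number 1 arrays. With the number as a replicate block, the counts were 121 higher and 196 lower. Among them were 0 members, whose smallest limma adjusted p was 0.53. Of the pathway lists, only E2f8 passed with this block (limma adjusted p = 0.0183). The SE there followed a probe set's mean intensity and not the agreement of its numbers. For Cdkn1b 1434045_at, at -0.71 within number 1 and 0.87 within number 2, this SE was 0.22. Passing with the block therefore does not show that the numbers agreed. As deposited, the median of all probe sets was -0.42, and with median centring -0.25, so signs there are relative to that shift. As deposited, the sign reversed for Cdkn1b 1434045_at (-0.48), Cdkn1c (-0.41), Rbl1 1424156_at (-0.43), Rbl2 1418146_a_at (-0.33), E2f1 1447840_x_at (-0.0029), Ccnd1 1417419_at (-0.55) and Ccnd2 1416122_at (-0.28), 1434745_at (-0.49), 1430127_a_at (-0.60) and 1448229_s_at (-0.23). With median centring it reversed for the same probe sets except that of E2f1, at -0.31, -0.24, -0.26, -0.16, -0.38, -0.11, -0.32, -0.42 and -0.0557 in that order. Trimmed-mean scaling reversed Ccnd1 1448698_at (0.0787) and Ccnd2 1430127_a_at (-0.0265), and the mean of all its probe sets reversed Rbl1 (-0.0128). Without 1 array, ranges that crossed 0 were -0.49 to 0.28 for Cdkn1a 1424638_at, -1.12 to 1.29 for Cdkn1b 1434045_at, -0.29 to 0.96 for Cdkn1b 1419497_at, -0.078 to 0.29 for Cdkn1c, -0.47 to 0.0824 for Rb1 1417850_at, -0.35 to 0.40 for Rbl1 1424156_at, -0.30 to 0.18 for Rbl2 1425981_a_at, -0.0943 to 0.18 for Rbl2 1418146_a_at, -0.73 to 0.30 for E2f1 1431875_a_at, -0.11 to 0.0693 for Ccnd1 1448698_at, -0.10 to 0.22 for Ccnd1 1417419_at, -0.23 to 0.23 for Ccnd2 1430127_a_at, -0.34 to 0.22 for Ccnd2 1455956_x_at, -0.19 to 0.76 for Ccnd2 1448229_s_at, -0.77 to 0.10 for Ccnd2 1416123_at and -0.19 to 0.39 for Ccnd2 1416124_at. The cause of these reversals was not tested. The others kept their sign, at -0.57 to -0.01 for Rbl1 1425166_at, -0.28 to -0.08 for E2f1 1417878_at, 0.11 to 0.25 for E2f1 1447840_x_at, -0.52 to -0.10 for Ccnd1 1417420_at, 0.25 to 0.40 for Ccnd2 1416122_at and 0.03 to 0.20 for Ccnd2 1434745_at.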
